A study of Mus musculus with 28 samples.

Results

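Interferon-induced genes are the genes that a cell turns on after interferon has bound its receptor, and 39 of them were examined here in mouse plasma cell tumors and in normal B cells. The 39 were taken by name as known interferon-induced genes, a list chosen with earlier results of these data known, and each was read from its brightest array probe. A named probe was found for 38 of the 39, among 19057 genes with a named probe, and 34 of the 38 were detected on at least 3 of the 28 arrays and entered the tests, among 11804 genes tested. Ifi44 had no named probe and was not analysed here. Ifih1 (the RNA sensor MDA5) and Ifit1 were detected on 0 arrays, Oas1a on 1 and Xaf1 on 2, so these 4 have no test. Their mean log2 levels lay between 4.47 and 4.81 in each of the 3 groups.

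The normal B cells were 3 spleen samples from BALB/c mice aged 90 days. Every tumor had the strain C.iMyc/IL-6 and, like the normal mice, a BALB/c background; these mice hold a Myc gene inserted in the genome together with an IL-6 transgene, and the promoter or cell type that drives either is not given in the sources used here. Of the tumors, 14 grew in oil granuloma tissue from premalignant B cells moved into a host by adoptive transfer and were taken at 105 to 158 days, and 11 arose spontaneously in lymph node tissue and were taken at 40 to 162 days. Tumor kind and tissue therefore cannot be told apart, and neither can effects of the host tissue and of the tumor cells, since whole tissue was ground. Transcripts linked to sex also ran with the groups. The Y-linked gene Eif2s3y measured 8.93 to 9.04 and Xist 4.57 to 4.75 in the normal samples, against at most 4.82 and 9.12 to 11.90 in all 14 adoptive-transfer tumors, so sex and group cannot be told apart there. Among spontaneous tumors, Eif2s3y measured 8.27 to 8.58 in 7 and 4.34 to 5.61 in 4. The labels do not say whether samples came from separate animals, so p-values measure the spread between these samples only.

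Interferons of type I (alpha and beta) signal through a receptor coupled to JAK1 and TYK2, which activate the factor ISGF3, of which STAT2 and IRF9 are subunits. ISGF3 binds the interferon-stimulated response element (ISRE). Interferon gamma signals through JAK1 and JAK2 to the GAS element, and it drives the chemokines Cxcl9 and Cxcl10 and the GTPases of the guanylate-binding (Gbp) and immunity-related (Igtp, Irgm1, Iigp1) families most strongly. The induced proteins sense foreign nucleic acid, block translation, degrade RNA, restrict virus entry and release, or attract T cells.

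Levels are log2 of background-corrected intensity plus an offset of 16, quantile normalized over the arrays, so differences of dim genes are understated. An array of normal B cells detected 15633 to 16866 probes, one of an adoptive-transfer tumor 11544 to 16827 and one of a spontaneous tumor 14472 to 16756. All 7 tested mature B cell markers were lower in both tumor kinds than in normal B cells, and 7 and 6 of 8 plasma cell markers were higher in adoptive-transfer and spontaneous tumors. The tumors also held other cells, with 8 and 7 of 10 fibroblast and matrix markers higher than in normal B cells. Transcripts of the exocrine pancreas had a mean above 9 log2 units in adoptive-transfer tumor 1 and in 6 spontaneous tumors (2, 4, 5, 8, 10 and 11). Fewest probes of their kind were detected in adoptive-transfer tumors 1 and 5, with 11544 and 13669, and the main counts, medians and SDs are also given without them. In whole tissue, fewer cells of a type and less RNA per cell cannot be told apart.

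Tumors from transferred cells were set against normal B cells first. Of the 34 members, 4 were higher and 5 lower at an adjusted p under 0.05 (limma, two-sided, Benjamini-Hochberg over 11804 genes), and 25 were not called. Over all genes, 36.5% were called in this comparison, 19.8% higher and 16.7% lower. The median difference of the members was 0.29 log2 units, beside 0.10 for all genes tested. It was 0.05 without tumor 5, 0.12 without tumor 7, 0.18 without tumor 6, 0.11 without tumors 1 and 5, and -0.06 without the 3 tumors labelled 107 days, while the median of all genes lay between 0.09 and 0.11. The 4 higher members were the GTPase gene Igtp, the nucleic acid sensor gene Zbp1, Bst2 and Oasl2, and the 5 lower ones were Irf8, Ifi27, Irf9, Ddx58 and Ifi35. Spontaneous tumors gave the same 9 calls with the same signs and 1 more, Cxcl9, against the same 3 normal samples. There 5 of 34 members were higher and 5 lower, beside 36.4% of all genes called, 18.5% higher and 17.9% lower. The median difference of the members was -0.07, beside 0.08 for all genes.

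**Figure D1:**
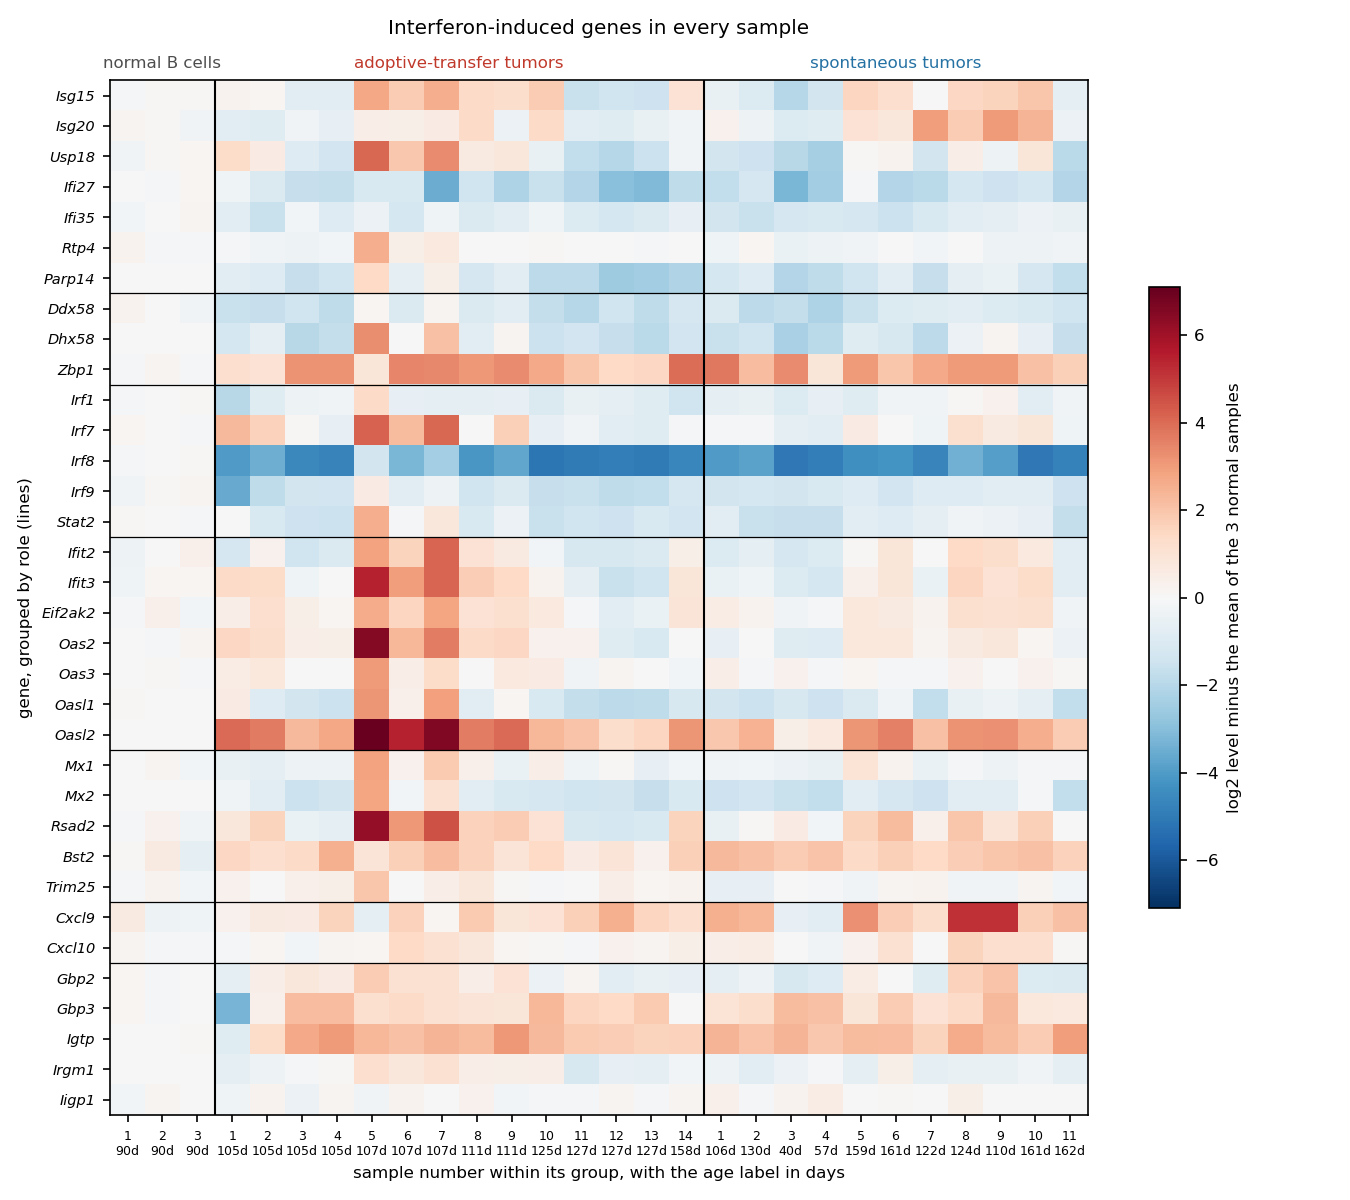
Log2 level of each of the 34 tested members (rows, grouped by role) in each of the 28 samples (columns, with sample number and age label in days), less the mean of the 3 normal samples; the colour scale runs from blue (lower) to red (higher). Irf8 is blue in every tumor, Igtp, Zbp1 and Oasl2 are red in nearly all tumors, and adoptive-transfer tumors 5, 6 and 7 are redder than the other tumors for many genes.

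Among the transcription factors, 0 of 5 were higher and 2 were lower in each tumor kind. Irf8, a factor of the B cell and myeloid lineages, measured 10.06, 10.19 and 10.26 in the normal samples. It ran from 5.07 to 8.87 with a median of 5.82 in adoptive-transfer tumors, and from 5.07 to 6.75 with a median of 5.83 in spontaneous tumors. No tumor reached the level of any normal sample. Irf8 was 16.2-fold lower in adoptive-transfer tumors (log2 difference -4.02 ± 0.53, SE; adjusted p = 6.48e-07) and 21.0-fold lower in spontaneous tumors (-4.39 ± 0.54; adjusted p = 2.15e-07). The 7 mature B cell markers, which fell in the same tumors, had mean levels of 10.73 to 10.98 in normal samples and of 5.49 to 7.28 in tumors. Their part in the result for Irf8 was not tested.

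Irf9, the DNA-binding subunit of ISGF3, measured 8.79, 9.14 and 9.23 in normal samples. In adoptive-transfer tumors it ran from 5.50 to 9.65 (median 7.67) and in spontaneous tumors from 7.61 to 8.30 (median 8.00). All 11 spontaneous tumors and 13 of 14 adoptive-transfer tumors lay below the normal samples, and adoptive-transfer tumor 5 lay above them. Irf9 fell by 1.35 ± 0.41 log2 units in adoptive-transfer tumors (limma adjusted p = 0.0106) and by 1.10 ± 0.42 in spontaneous tumors (adjusted p = 0.0421). Its other probe gave -1.35 and -1.41. Stat2, its partner in ISGF3, measured 6.97, 6.91 and 6.82 in normal samples and 6.25 ± 1.17 (SD, n = 14) and 5.91 ± 0.53 (SD, n = 11) in the tumors, and neither difference was called. Irf7, which amplifies type I interferon production, measured 5.54, 5.41 and 5.29 in normal samples, 6.34 ± 1.76 after transfer and 5.49 ± 0.63 in spontaneous tumors. Irf1, an early target of interferon gamma, lay at 11.34 ± 0.11 in normal samples, 10.70 ± 0.73 after transfer and 10.92 ± 0.40 in spontaneous tumors; neither Irf1 nor Irf7 was called.

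Among the sensors of foreign nucleic acid, 1 of the 3 tested was higher and 1 lower in each tumor kind. Zbp1, which binds Z-form nucleic acid and can start necroptosis, was not detected in any normal sample (4.62, 4.85 and 4.59). It was detected in all 25 tumors, from 5.52 to 8.66 (median 7.57) after transfer and from 5.57 to 8.43 (median 7.38) in spontaneous tumors. All tumors lay above all normal samples. With undetected values set at the lowest detected signal of their array, Zbp1 was at least 4.02-fold higher in adoptive-transfer tumors (limma adjusted p = 0.00102) and at least 4.20-fold higher in spontaneous tumors (adjusted p = 0.00102). Its 2 dimmer probes gave differences of 0.18 and 0.66 after transfer and of 0.11 and 0.48 in spontaneous tumors, in the same direction with unadjusted p-values of 0.12 to 0.602.

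Ddx58, the gene of the RNA sensor RIG-I, measured 7.59, 7.30 and 7.06 in normal samples. It ran from 5.30 to 7.51 (median 5.92) after transfer and from 5.15 to 6.55 (median 6.21) in spontaneous tumors. Adoptive-transfer tumors 5 and 7 lay within the range of the normal samples and the other 23 tumors below it. The difference was -1.21 ± 0.35 after transfer (limma adjusted p = 0.00755) and -1.31 ± 0.36 in spontaneous tumors (adjusted p = 0.00485). Dhx58, the related sensor LGP2, measured 6.79, 6.82 and 6.78 in normal samples. It spanned 4.83 to 10.12 after transfer and 4.52 to 7.01 in spontaneous tumors, and was not called in either (adjusted p = 0.560 and 0.221).

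Among the effectors that act on translation and RNA, Oasl2, of the oligoadenylate synthetase family, was the single called member of 7 tested. It was not detected in normal samples (4.44, 4.51 and 4.49). It was detected in all 14 adoptive-transfer tumors, from 5.74 to 11.49 with a median of 7.86, and in 9 of 11 spontaneous tumors, from 4.93 to 8.05 with a median of 6.93. No tumor overlapped the normal samples. Oasl2 was at least 7.49-fold higher after transfer (limma adjusted p = 0.00147) and at least 3.11-fold higher in spontaneous tumors (adjusted p = 0.0411). A dimmer probe of Oasl2 gave 0.59 ± 0.38 and 0.01 ± 0.39, with unadjusted p-values of 0.13 and 0.976. The other 6, Ifit2, Ifit3, Eif2ak2 (the kinase PKR), Oas2, Oas3 and Oasl1, were not called against normal B cells. Over the tumors of both kinds, each had tumors on both sides of the normal samples, but all 11 spontaneous tumors lay below them for Oasl1. Ifit3, for example, measured 6.72, 7.15 and 7.14 in normal samples and spanned 5.42 to 12.49 after transfer and 5.75 to 8.53 in spontaneous tumors.

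Among the genes of membrane and capsid restriction, Bst2 alone of 5 was called. Bst2 encodes tetherin, which holds budding virus at the cell surface and is also carried by plasma cells and plasmacytoid dendritic cells. It measured 7.79, 8.34 and 7.03 in normal samples, 8.02 to 10.26 (median 9.10) after transfer and 9.07 to 10.01 (median 9.53) in spontaneous tumors. All spontaneous tumors and 12 of 14 adoptive-transfer tumors lay above the normal samples. Bst2 was 2.55-fold higher after transfer (1.35 ± 0.32; limma adjusted p = 0.00110) and 3.55-fold higher in spontaneous tumors (1.83 ± 0.32; adjusted p = 4.55e-05). Scaling the arrays to a common median in place of quantile normalization ended the call after transfer (adjusted p = 0.0778). Siglech, a marker of plasmacytoid dendritic cells, fell from a mean of 7.89 in normal samples to 5.91 after transfer and 5.65 in spontaneous tumors, while Sdc1, a plasma cell marker, rose from 4.93 to 6.91 and 7.95; their part in the result for Bst2 was not tested. Of the 7 tested markers of plasmacytoid dendritic cells, a list that includes Bst2 itself, 1 was higher (Bst2) and 1 lower after transfer, with a median difference of -0.43, and 1 was higher (Bst2) and 2 were lower in spontaneous tumors, with a median of -0.56. Rsad2 (viperin), the Mx GTPase genes Mx1 and Mx2, and the RIG-I ubiquitin ligase gene Trim25 were not called.

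Among the GTPases of the interferon gamma response, Igtp was called and Gbp2, Gbp3, Irgm1 and Iigp1 were not. Igtp (Irgm3), which guards vacuoles that hold intracellular pathogens, measured 8.07, 8.05 and 8.15 in normal samples. After transfer it ran from 7.23 to 11.17 with a median of 10.24, and in spontaneous tumors from 9.66 to 11.05 with a median of 10.31. All tumors but adoptive-transfer tumor 1 lay above the normal samples. Igtp was 3.89-fold higher after transfer (1.96 ± 0.45; limma adjusted p = 8.79e-04) and 4.66-fold higher in spontaneous tumors (2.22 ± 0.46; adjusted p = 3.04e-04). Gbp3 lay above the normal samples (8.30, 8.05 and 8.13) in 12 of 14 and in 11 of 11 tumors, but tumor 1 measured 4.86, and the differences of 1.00 ± 0.65 and 1.39 ± 0.67 were not called (adjusted p = 0.251 and 0.107). Without adoptive-transfer tumors 1 and 5, Gbp3 was called in both comparisons (adjusted p = 0.00618 and 0.0053). Iigp1 stayed between 4.41 and 5.40 in all 28 samples, at the edge of detection.

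Of the chemokines that attract activated T cells, Cxcl9 was detected in 1 of 3 normal samples (5.85, 4.91 and 4.96). It ran from 4.53 to 7.78 (median 6.35) after transfer and from 4.44 to 10.44 (median 7.34) in spontaneous tumors. The groups overlapped, with 9 of 11 spontaneous tumors above the normal samples and tumors 3 and 4 below them. The difference in spontaneous tumors was 2.17 ± 0.84 (limma adjusted p = 0.0418), and after transfer 1.06 ± 0.82 (adjusted p = 0.340). The call for Cxcl9 in spontaneous tumors was lost in 14 of 25 alternatives, with adjusted p-values of 1.02e-04 to 0.186. Cxcl10 was detected in no normal sample, in 4 tumors after transfer and in 6 spontaneous ones, and was not called.

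In the group around the ubiquitin-like modifier ISG15, 2 of 7 tested members fell in each tumor kind and none rose. Ifi27 measured 10.89, 10.76 and 11.01 in normal samples, 7.37 to 10.60 (median 9.23) after transfer and 7.62 to 10.78 (median 9.14) in spontaneous tumors. All adoptive-transfer tumors and 10 of 11 spontaneous ones lay below the normal samples, a fall of 1.82 ± 0.50 (limma adjusted p = 0.00476) and of 1.72 ± 0.51 (adjusted p = 0.00878). Its other probe gave -1.67 and -1.62. Ifi35 measured 7.96, 8.21 and 8.37 in normal samples, 6.61 to 7.97 after transfer and 6.62 to 7.77 in spontaneous tumors, and fell by 0.81 ± 0.25 (adjusted p = 0.0116) and by 1.02 ± 0.26 (adjusted p = 0.00226). Isg15 itself, at 6.81, 7.05 and 7.06 in normal samples, had tumors on both sides in each kind and was not called. Neither were Usp18, which strips ISG15 from proteins and damps the type I receptor, the exonuclease gene Isg20, the ADP-ribosyltransferase gene Parp14 or Rtp4. Parp14 lay below the normal samples in 12 of 14 and in 11 of 11 tumors, with adjusted p-values of 0.0749 and 0.0597.

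**Figure D2:**
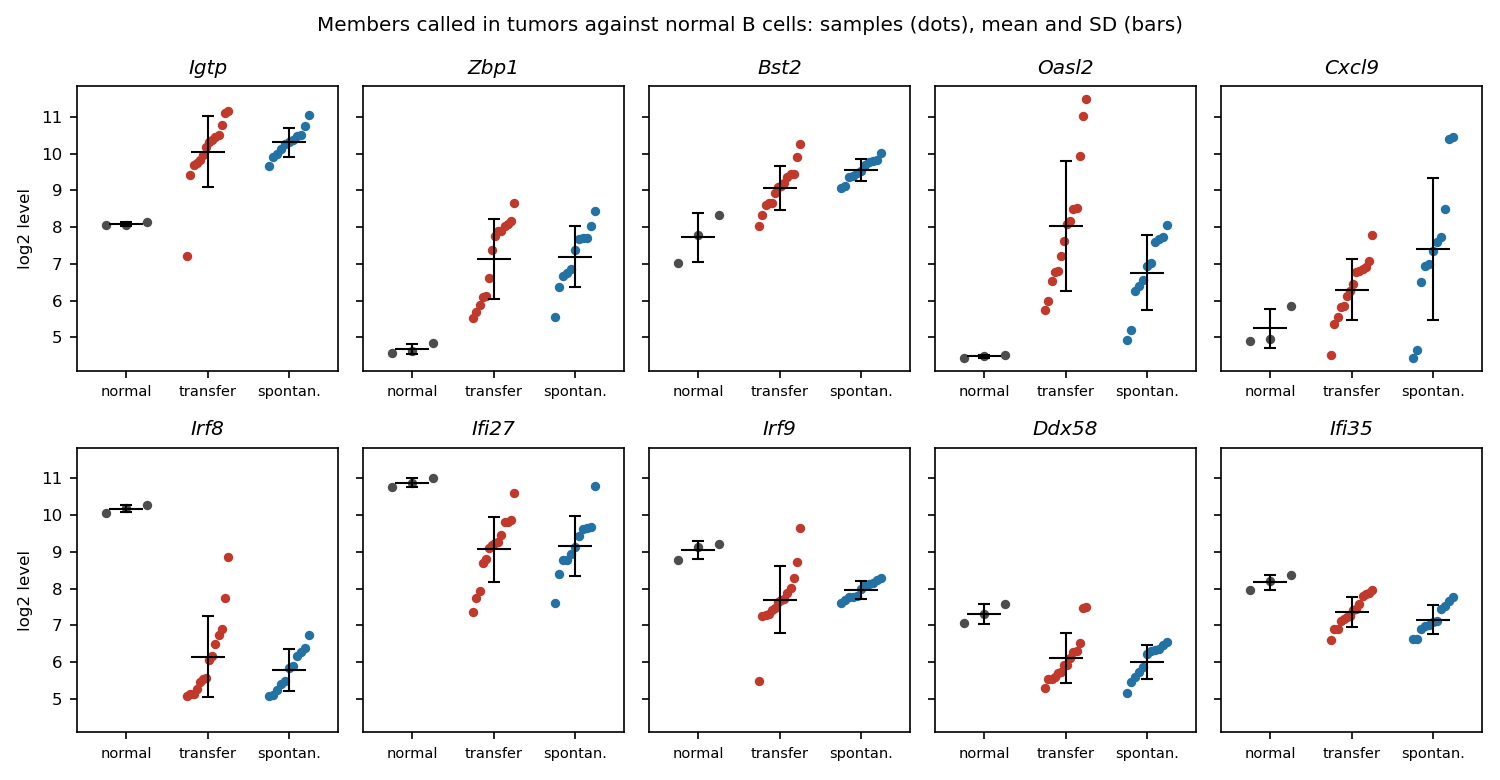
Log2 levels of the 10 members called in either comparison with normal B cells, with 1 dot per sample (3 normal samples, 14 adoptive-transfer tumors, 11 spontaneous tumors) and the mean with its SD in black. Zbp1 and Oasl2 lie above the normal samples in all tumors and Irf8 lies below them in all tumors, while Cxcl9 spreads from 4.44 to 10.44 in spontaneous tumors.

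Single normal samples mattered, since that group holds 3. After transfer, the call for Ddx58 was lost without normal sample 1 (adjusted p = 0.0591), and those for Ifi35 and Irf9 without normal sample 2 or 3, which left 3 lower members in place of 5. The share of all genes called in either direction fell as well, from 36.5% to 28.5%, 27.2% and 27.8% without normal sample 1, 2 and 3. In spontaneous tumors, the calls for Oasl2 and Irf9 were lost in 15 and 9 of 25 alternatives. In the same tumors, 3 members were called higher in place of 5 without any 1 of the 3 normal samples or without spontaneous tumor 2, 5, 8 or 9. The share of all genes called there in either direction fell from 36.4% to 28.8%, 27.8% and 27.9% without normal sample 1, 2 and 3. With spontaneous tumor 2, 5, 8 or 9 left out in turn, the share was 35.1%, 35.6%, 35.5% and 36.1%. Leaving out the 3 adoptive-transfer tumors labelled 107 days was a choice made after seeing the data. It raised the lower members after transfer from 5 to 11, adding Dhx58, Irf1, Mx2, Oasl1, Parp14 and Stat2 and losing none. The share of all genes called in either direction rose from 36.5% to 43.0%. Of those calls, 55% were higher, beside 54.3% with all tumors. Without adoptive-transfer tumors 1 and 5, 9 members were lower after transfer, and 8 in spontaneous tumors, since the 3 groups share 1 estimate of the spread. All genes called in either direction then made up 46.0% and 44.5%, and 55.7% and 51.8% of those calls were higher. Leaving out the tumors with pancreas transcripts, also chosen after seeing the data, ended the calls for Cxcl9 and Oasl2 in spontaneous tumors. Gbp3 was then called higher after transfer and in spontaneous tumors (limma adjusted p = 0.0107 and 0.00674), beside 36.6% and 32.8% of all genes called.

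The genes upstream of these targets were read from lists of ligands, receptors and inducing factors, beside 19.8% of all genes higher and 16.7% lower after transfer and 18.5% and 17.9% in spontaneous tumors. Of 10 interferon ligand genes with a named probe, 2 were tested. Ifng fell by 0.54 ± 0.21 after transfer (limma adjusted p = 0.0388), from a mean of 5.22 to 4.68 and undetected in all 14 tumors, and measured 4.92 in spontaneous tumors (adjusted p = 0.287). Ifna1 was not called, and Ifnb1 was detected in no sample. Of 12 tested receptor and proximal signalling genes, 0 rose and 4 fell after transfer, and 1 rose and 3 fell in spontaneous tumors, which left 8 not called in each kind. Ptpn6, the phosphatase SHP-1 that damps JAK signalling, fell by 4.85 ± 0.75 and 4.92 ± 0.77. Jak1 fell by 1.72 ± 0.22 and 1.59 ± 0.23, and Ifngr1, the ligand-binding chain of the interferon gamma receptor, fell by 1.56 ± 0.48 and 1.77 ± 0.49. Jak2 fell by 1.54 ± 0.39 after transfer, with -0.96 ± 0.40 in spontaneous tumors (adjusted p = 0.0594), and the interferon lambda receptor gene Ifnlr1 rose by 1.32 ± 0.49 in spontaneous tumors (adjusted p = 0.0350).

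Of 13 tested genes of the pathways that induce interferon, 1 rose and 5 fell after transfer, and 0 rose and 6 fell in spontaneous tumors. The kinase gene Tbk1 fell by 1.40 ± 0.32 and 1.17 ± 0.33, Irf5 by 1.91 ± 0.43 and 1.64 ± 0.44, Tlr7, a sensor of single-stranded RNA, by 1.41 ± 0.50 and 2.12 ± 0.51, and Irf3 by 0.62 ± 0.21 and 0.72 ± 0.21. The exonuclease gene Trex1 rose by 0.94 ± 0.36 after transfer (limma adjusted p = 0.0392). Of 30 further interferon-induced genes, 6 rose and 6 fell after transfer and 6 rose and 5 fell in spontaneous tumors. Ifitm1, Ifitm2 and Ifitm3, which restrict virus entry, rose by 2.88 ± 0.58, 1.68 ± 0.48 and 3.44 ± 0.61 after transfer and by 2.85 ± 0.59, 1.71 ± 0.49 and 3.03 ± 0.62 in spontaneous tumors. Samd9l fell by 4.21 ± 0.78 and 4.92 ± 0.80, and Sp100, a nuclear body gene, fell with differences of -2.82 ± 0.45 and -2.91 ± 0.46. No gene of these 4 lists was called between the 2 tumor kinds. Several of the list genes belong to other cells as well: fibroblasts express Ifitm genes, and Ptpn6 and Irf5 mark blood cells. The part of such cells in these differences was not tested.

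The next comparison set the 2 tumor kinds against each other. None of the 34 members was called by limma, beside 2.73% of all genes (1.37% higher and 1.36% lower after transfer). An unadjusted p under 0.05 was reached by 7 members, a threshold at which the share of all genes was not computed. The members' median difference was 0.32 log2 units (adoptive-transfer less spontaneous), with 23 of 34 above 0, beside a median of 0.03 for all genes. The member nearest to a call was Trim25, at 9.60 to 11.68 (median 9.98) after transfer and 9.08 to 9.92 (median 9.48) in spontaneous tumors, where 8 of 14 adoptive-transfer tumors lay above all spontaneous ones. Its difference was 0.53 ± 0.17 (adjusted p = 0.0893), and it was called without tumor 5 (0.40 ± 0.12, adjusted p = 0.0415) and without the tumors labelled 107 days (adjusted p = 0.0468). The share of all genes called rose there to 4.79% and 5.7%. The dimmer probe of Trim25 gave 0.31 ± 0.20 (limma unadjusted p = 0.129). A dimmer probe of Irf1 gave -0.49 ± 0.13 (limma unadjusted p = 4.63e-04), while the other Irf1 probes, the brightest among them, gave -0.39 to -0.23 (unadjusted p = 0.156 to 0.348). Oasl2 and Oas2 differed by 1.27 ± 0.54 and 1.21 ± 0.56, and Isg20, Cxcl9 and Bst2 by -0.96 ± 0.42, -1.11 ± 0.52 and -0.48 ± 0.20, all with adjusted p-values of 0.212 to 0.268. The members' median was 0.16 without tumors 1 and 5 and 0.10 without tumor 5, and turned to -0.09 without the 3 tumors labelled 107 days, beside 0.03 to 0.04 for all genes. Leaving out the tumors with pancreas transcripts was an alternative chosen after seeing the data. The members' median was then 0.39, beside 0.03 for all genes, and the share of all genes called fell to 0.568%.

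The members also varied between single tumors of each kind. The median SD of a member was 0.16 log2 units within normal B cells, 1.03 within adoptive-transfer tumors and 0.56 within spontaneous tumors, beside 0.15, 0.50 and 0.32 for all genes tested. In adoptive-transfer tumors, 18 of 34 members had an SD over 1, beside 9.63% of all genes, and 18 lay in the top decile of all genes by SD. In spontaneous tumors, 6 had an SD over 1, beside 3.35% of all genes, and 13 lay in the top decile. Without adoptive-transfer tumors 1 and 5, the median SD of a member after transfer was 0.74, beside 0.37 for all genes, with 10 members over 1, beside 4.73% of all genes, and 17 in the top decile. The spread around the group median was wider after transfer for 30 of 34 members, with a median difference of 0.35 beside 0.11 for all genes. As that median lies above 0, most of all genes were wider after transfer as well. Limma on the absolute deviations called 0 members, beside 0.339% of all genes (0.0424% wider and 0.297% narrower after transfer). An unadjusted p under 0.05 was reached by 5 members, a threshold at which the share of all genes was not computed. Without tumors 1 and 5 that median difference was 0.14, beside 0.04 for all genes. Without the 3 tumors labelled 107 days it was 0.03, beside 0.07 for all genes, and the median SD of a member was 0.66, beside 0.44. Without the tumors with pancreas transcripts the median difference in spread was 0.32, beside 0.09 for all genes, and 0 of all genes were called.

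**Figure D3:**
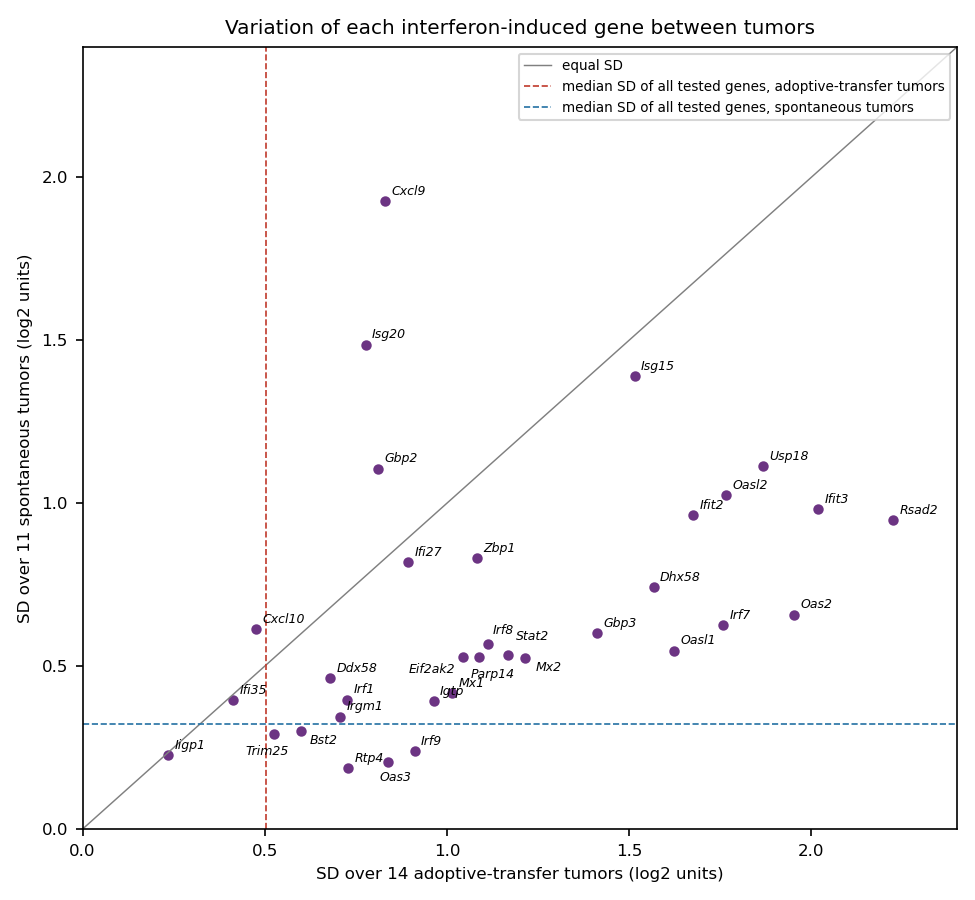
SD of each of the 34 tested members over the 14 adoptive-transfer tumors (horizontal axis) and the 11 spontaneous tumors (vertical axis), in log2 units, with the line of equal SD in grey and the median SD of all tested genes in each kind as dashed lines. Rsad2, Ifit3 and Oas2 lie farthest right, and Cxcl9, Isg20 and Gbp2 lie above the line.

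The promoters of the members that varied most after transfer are shown first, because Rsad2, Ifit3 and Isg15 were all highest in tumor 5; Gbp3, highest in tumor 10, is set beside them. The SD of Gbp3, 1.41 over 14 tumors, was 0.71 without tumor 1, where its value of 4.86 was not detected. RefSeq promoter sequences (GRCm38.p6) of 300 bases around the annotated start were held for 29 of the 39 members. The ISRE core, GAAA followed by any 2 bases and a further GAAA, searched on both strands with overlapping matches counted, occurred in 16 of the 29 (55.2%), beside 4.0% of 26735 genes with a promoter of the same length. The GAS core TTCNNNGAA, which reads alike on both strands, occurred in 9 of the 29 (31.0%), beside 9.6% of genes. A match describes the letters and not a binding site. The 250 bases before the start are given 5′ to 3′ on the gene's strand for the 4 members with the largest SD after transfer that hold an ISRE core there, with cores in capitals (TTTC marks a core on the opposite strand).
Rsad2 (chr12:26456453-26456702, minus strand): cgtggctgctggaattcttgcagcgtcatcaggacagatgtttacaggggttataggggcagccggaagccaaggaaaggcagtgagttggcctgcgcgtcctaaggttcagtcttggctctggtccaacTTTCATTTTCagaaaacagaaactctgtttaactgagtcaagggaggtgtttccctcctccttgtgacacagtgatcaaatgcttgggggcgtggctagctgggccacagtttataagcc
Ifit3 (chr19:34583279-34583528, plus strand): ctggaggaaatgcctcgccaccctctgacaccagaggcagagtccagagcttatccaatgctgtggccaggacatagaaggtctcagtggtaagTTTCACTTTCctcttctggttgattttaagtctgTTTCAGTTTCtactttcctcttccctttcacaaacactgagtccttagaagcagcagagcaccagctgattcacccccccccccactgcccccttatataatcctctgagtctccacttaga
Isg15 (chr4:156200819-156201068, minus strand): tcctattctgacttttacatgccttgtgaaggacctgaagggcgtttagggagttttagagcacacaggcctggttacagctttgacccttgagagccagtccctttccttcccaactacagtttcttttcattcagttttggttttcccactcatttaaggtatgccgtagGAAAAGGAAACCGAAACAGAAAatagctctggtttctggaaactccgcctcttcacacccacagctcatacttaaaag
Gbp3 (chr3:142559794-142560043, plus strand): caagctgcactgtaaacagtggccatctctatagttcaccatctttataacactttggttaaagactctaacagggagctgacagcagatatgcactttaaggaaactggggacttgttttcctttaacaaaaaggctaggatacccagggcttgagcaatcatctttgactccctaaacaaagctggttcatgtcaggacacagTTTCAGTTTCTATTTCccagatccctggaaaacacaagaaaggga
The core lay 120 bases before the start in Rsad2, and 2 cores lay 156 and 122 bases before it in Ifit3. In Isg15, 3 overlapping cores began 78 bases before the start, and in Gbp3 2 overlapping cores began 45 bases before it. Bst2 and Igtp, both higher in tumors than in normal B cells, also held ISRE cores, shown with 10 bases on either side.
Bst2 (chr8:71537577-71537612, minus strand): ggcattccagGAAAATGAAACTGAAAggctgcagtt
Igtp (chr11:58199512-58199541, plus strand): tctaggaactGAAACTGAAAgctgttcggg
The Bst2 cores began 130 bases and the Igtp core 34 bases before the start. Ddx58, lower in both tumor kinds than in normal B cells, also held 1 ISRE core, which began after the annotated start. No ISRE core was found in the windows of Oasl2, Irf7, Irf8, Irf9, Ifi35 and Cxcl9, while that of Irf8 held 2 GAS cores. Among members with a promoter held, ISRE cores thus occurred in members called higher and in 1 called lower. No promoter was held for Zbp1, called higher, or Ifi27, called lower. None was held for Oas2, Usp18 and Dhx58 either, which varied widely after transfer.

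The 6 members with the largest SD after transfer were Rsad2 (2.23), Ifit3 (2.02), Oas2 (1.95), Usp18 (1.87), Oasl2 (1.77) and Irf7 (1.76). Without tumors 1 and 5, Ifit2 took the place of Oas2 among the 6. Rsad2, the antiviral enzyme viperin, ran from 5.09 in tumor 12 to 12.58 in tumor 5, with a median of 7.63. Ifit3, which binds foreign RNA with its relatives, ran from 5.42 to 12.49 in the same tumors, and Oas2 from 4.75 in tumor 13 to 12.34 in tumor 5. Tumor 5 was the highest adoptive-transfer tumor for all 6, and tumor 7 was second for all 6, at 10.85 for Rsad2, 11.12 for Ifit3 and 11.03 for Oasl2. Tumors 5, 6 and 7 share the age label of 107 days. Their Irf7 levels were 9.58, 7.68 and 9.52, beside 4.53 to 7.70 in the other 11 tumors, so tumor 6 lay within that range.

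Over the 34 members, tumors 5, 6 and 7 lay above the group median for 28, 31 and 31, and tumors 8 and 9, labelled 111 days, for 27 and 24. Tumors 11, 12 and 13, labelled 127 days, lay above it for 3, 7 and 4. The median deviation of a member from the group median was 2.05 in tumor 5, 0.68 in tumor 6 and 1.33 in tumor 7, and -0.40, -0.51 and -0.64 in tumors 11, 12 and 13. Over all genes, the same medians lay between -0.08 and 0.06 in all 14 tumors. Tumor 5 stood at least 1 log2 unit above the group median for 24 members, beside 17.1% of all genes, tumor 6 for 12, beside 4.99%, and tumor 7 for 19, beside 6.57%.

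A limma F test over the 4 age labels held by at least 2 adoptive-transfer tumors (105, 107, 111 and 127 days, 12 tumors) was added after seeing the data, so it describes a pattern already seen. It called 14 of 34 members, beside 3.05% of all genes. An unadjusted p under 0.05 was reached by 23 members, a threshold at which the share of all genes was not computed. The mean was highest at 107 days for 27 of 34 members, beside 27.1% of all genes, and lowest at 127 days for 25, beside 28.3%. Isg15 averaged 6.68, 9.36, 8.29 and 5.48 at 105, 107, 111 and 127 days (adjusted p = 0.00165). At 107 days the tumors measured 9.72, 8.79 and 9.58, above the other 9 tumors tested, and at 127 days they measured 5.39, 5.55 and 5.51, below the other 9. Outside the test, tumor 10, labelled 125 days, measured 8.77 and tumor 14, labelled 158 days, measured 8.00. Rsad2 averaged 6.63, 10.95, 8.05 and 5.16 (adjusted p = 0.00714), Ifit2 4.98, 8.68, 6.68 and 4.75 (adjusted p = 0.00998), and Eif2ak2 8.34, 10.14, 8.87 and 7.32 (adjusted p = 0.0114). The other called members were Oasl2, Ifit3, Usp18, Irgm1, Oas2, Irf8, Oasl1, Dhx58, Parp14 and Irf7, with adjusted p-values of 0.00314 to 0.0449, each highest at 107 and lowest at 127 days.

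The effectors on translation and RNA gave 6 of 7 calls, the ISG15 group 3 of 7, the transcription factors 2 of 5, the sensors 1 of 3, the restriction genes 1 of 5, the GTPases 1 of 5 and the chemokines 0 of 2. The mean was highest at another label than 107 days for Cxcl9 and Gbp3 (127 days), Zbp1, Igtp and Iigp1 (111 days), and Bst2 and Ifi27 (105 days). Mx1, Irf9, Rtp4, Cxcl10 and Irf1 were highest at 107 but lowest at 105 days. Bst2 averaged 9.37, 9.33, 9.01 and 8.32 over the 4 labels, and Ifi27 9.73, 9.00, 9.09 and 8.17. Cxcl9 was lowest in tumor 5 (4.53) and averaged 6.02, 5.59, 6.60 and 7.15 over the 4 labels, and Zbp1 was also lowest in tumor 5 (5.52). Gbp3 was highest in tumor 10 (10.52) and averaged 8.54, 9.35, 9.04 and 9.76, and Igtp averaged 9.63, 10.38, 10.74 and 9.83. None of the members highest at another label was called, with adjusted p-values of the F test of 0.341 to 0.980. Of 30 further interferon-induced genes, 9 were called over the labels.

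The count of 14 rested on single tumors. It was 5 without tumor 7, 12 or 13, where 0.932%, 0.61% and 0.568% of all genes were called, and 6 without tumor 11 (0.881%). The count was 8 without tumor 3 or 8 (1.57% and 1.6%) and 9 without tumor 2, 4 or 9 (2.44%, 2.01% and 1.52%). It was 10 without tumor 5 (3.6%) and 15 without tumor 1 (5.4%). Leaving out tumor 6 gave 18 (4.44%), and so did leaving out both tumors 1 and 5 (10.2%). With all 12 tumors, 3.05% of all genes were called. Whether tumors with one age label shared a donor, a recipient cohort or a day of processing is not given in the labels and was not tested.

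**Figure D4:**
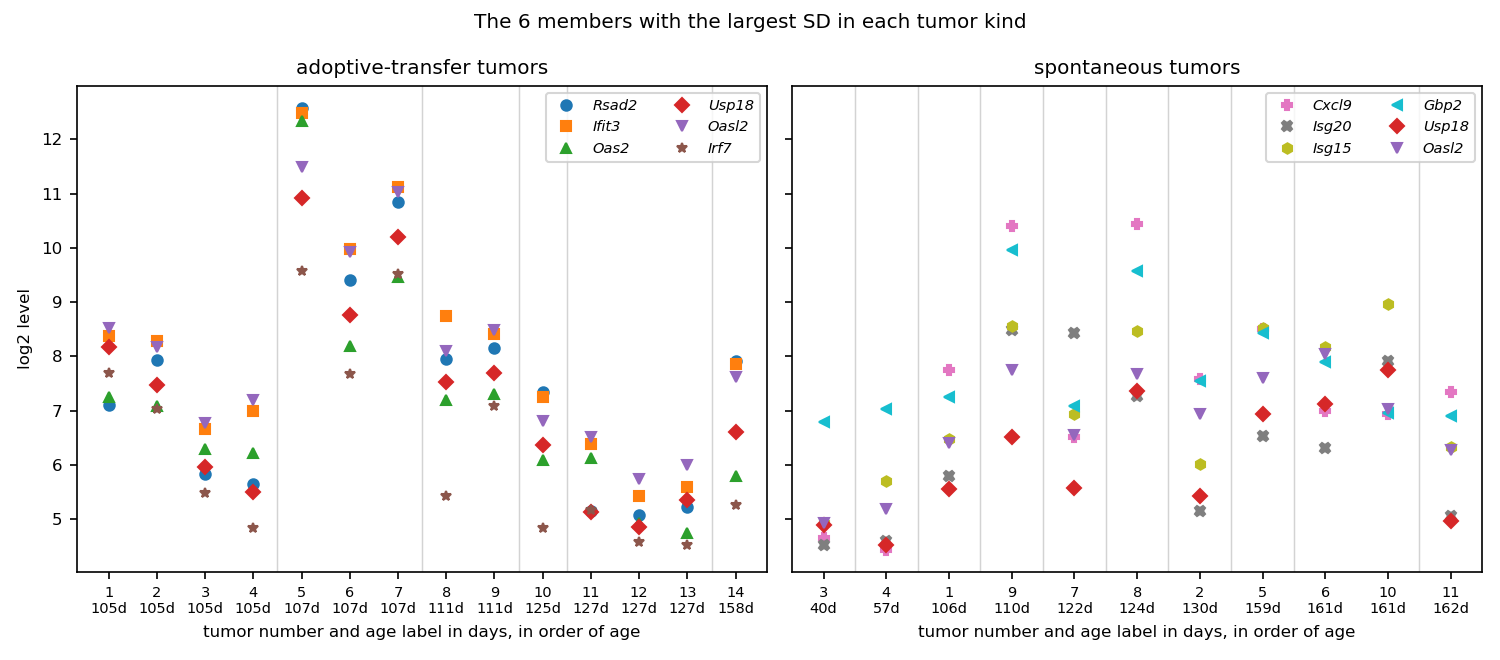
Log2 levels (vertical axis) of the 6 members with the largest SD in each tumor kind, for each tumor in order of its age label (horizontal axis, tumor number with days): adoptive-transfer tumors on the left, spontaneous tumors on the right, with 1 symbol per gene. Adoptive-transfer tumors 5, 6 and 7 (107 days) stand highest and tumors 11, 12 and 13 (127 days) low for most genes, and Cxcl9 and Gbp2 peak in spontaneous tumors 8 and 9.

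Markers of other cells moved with these tumors. The mean of the 7 neutrophil markers was 8.16 to 10.27 in the tumors of 107 days and 5.03 to 5.30 in those of 127 days, with 2 of 7 called over the labels. The mean of the 11 macrophage markers was 8.71 to 10.23 and 7.03 to 7.43, with 3 of 11 called. In tumor 5 the plasma cell markers were at their lowest, with a mean of 8.52 beside 9.13 to 10.86 in the other 13, and the NK and cytotoxic markers (9.97) and T cell markers (8.92) were at their highest. Fibroblast and matrix markers were low in tumors 5, 7 and 9, with means of 6.23, 6.04 and 5.95 beside 7.89 to 9.64 elsewhere. Cd4 and Cd8a were detected in no tumor, the NK gene Ncr1 in no tumor, and Itgam of the macrophage list in 3 adoptive-transfer tumors. The markers of conventional dendritic cells had means between 4.64 and 5.16 in all 14 tumors, and those of plasmacytoid dendritic cells between 6.98 and 8.68, lowest in tumor 5. The part of these cells in the levels of the interferon-induced genes was not tested.

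**Figure D5:**
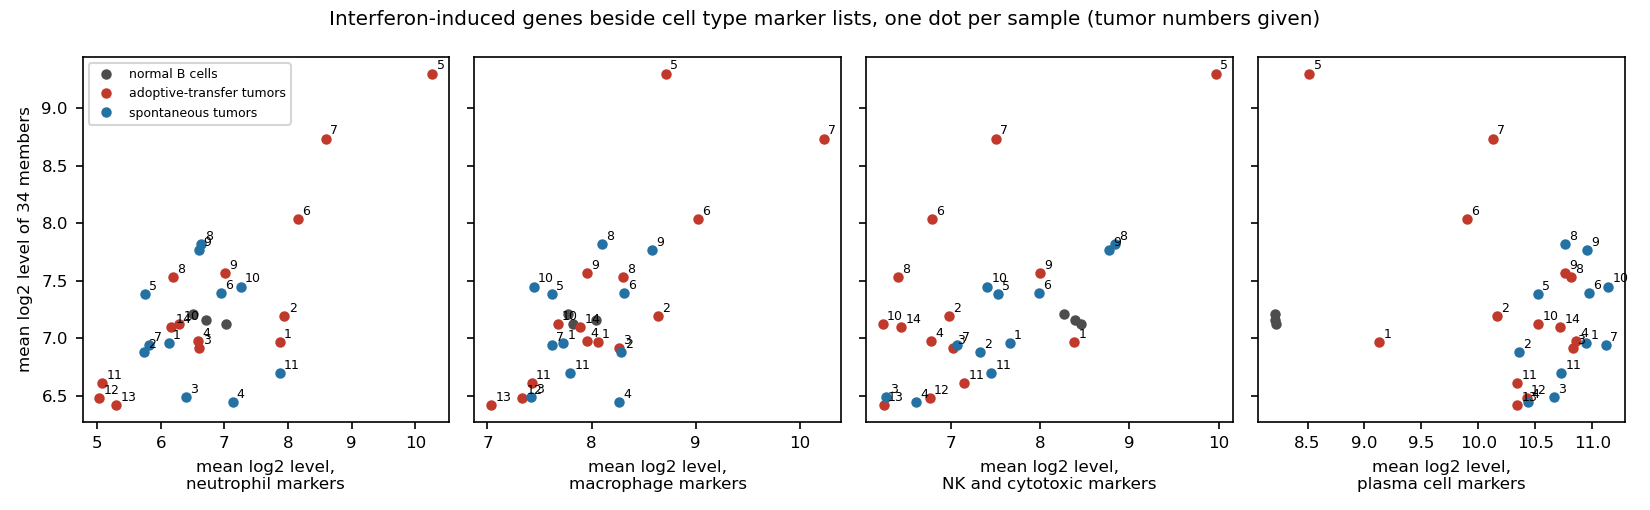
Mean log2 level of the 34 members (vertical axis) against the mean log2 level of neutrophil, macrophage, NK and cytotoxic, and plasma cell markers (horizontal axes), with 1 dot per sample and the tumor number beside each tumor. Adoptive-transfer tumors 5, 6 and 7 have the 3 highest member means (9.30, 8.04 and 8.74), with tumor 5 at the highest neutrophil and cytotoxic means and at the lowest plasma cell mean among tumors.

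In the spontaneous tumors, the 6 largest SDs of members were those of Cxcl9 (1.93), Isg20 (1.49), Isg15 (1.39), Usp18 (1.11), Gbp2 (1.11) and Oasl2 (1.02). Usp18 and Oasl2 were among the 6 in both tumor kinds. Cxcl9 measured 10.44 and 10.40 in tumors 8 and 9, with the others from 4.44 to 8.50. Gbp2, a GTPase that coats pathogen vacuoles, was also highest there, at 9.58 and 9.96 beside 6.79 to 8.44. Isg20 was highest in tumors 9, 7 and 10, at 8.49, 8.44 and 7.91, above all adoptive-transfer tumors (at most 6.84). Cxcl9 and Isg20 were 2 of the 4 members with a wider spread in spontaneous tumors; their differences in spread of -0.77 ± 0.37 and -0.67 ± 0.25 were not called (adjusted p = 0.460 and 0.423).

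Tumors 8 and 9 lay above the spontaneous group median for 31 and 28 of 34 members, beside 44.4% and 45.2% of all genes. Tumors 11, 4 and 3 lay above it for 4, 6 and 7 members, beside 45.3%, 44.4% and 49.3% of all genes. The member means were 7.82 and 7.77 in tumors 8 and 9 and 6.45 to 7.45 in the other 9, beside 7.13 to 7.22 in normal samples. T cell markers (8.33 and 8.20) and NK and cytotoxic markers (8.84 and 8.77) were highest in the same 2 tumors, and Ifng was highest in tumors 9 and 6, at 5.88 and 5.61. The part of these cells was not tested.

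Age ran from 40 to 162 days in the spontaneous tumors. A limma slope on age called 0 of 34 members and 0% of all genes. Of the members, 8 had an unadjusted p under 0.05, a threshold at which the share of all genes was not computed. The 4 oldest tumors (5, 6, 10 and 11, 159 to 162 days) were those with Xist at 10.91 to 11.71 and low Eif2s3y, and the 7 younger ones had Eif2s3y at 8.27 to 8.58, with Xist at 6.93 and 8.00 in tumors 3 and 4, so age and sex cannot be told apart in this slope. Of the 34 slopes, 28 were positive, with a median of 0.0052 log2 units per day beside -3.5e-05 for all genes. The share of all genes with a positive slope was not computed. Isg15 had a slope of 0.0225 ± 0.0071 log2 units per day (adjusted p = 0.2835) and Oasl2 one of 0.0185 ± 0.0048 (adjusted p = 0.248), while Gbp3 had one of -0.0101 ± 0.0032 (adjusted p = 0.282). The youngest tumors, 3 (40 days) and 4 (57 days), had the lowest levels of Isg15 (4.94 and 5.70), Oasl2 (4.93 and 5.19) and Cxcl9 (4.65 and 4.44), and 2 of the 3 highest of Gbp3 (10.39 and 10.25). Without these 2 tumors the median slope of the members was -0.0005 log2 units per day in place of 0.0052, and none was called.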

How the data were processed

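Total RNA of frozen, ground tissue was amplified to biotin-labelled cRNA and hybridised to 28 Illumina bead arrays, per the labels' protocols. The deposited files hold a linear intensity per probe without background subtraction and a detection score from 0 to 1. The deposited series table holds log2 values, whose ranks match the intensities (lowest rank correlation 0.999996). Partek is named in the submitters' processing notes, without a version or role. Background was corrected by normexp on negative controls inferred from detection p-values (1 less the score), with an offset of 16 and quantile normalization (neqc in limma 3.58.1, R 4.3.3). Of 45281 probes, 34885 had 1 gene symbol in the platform annotation, 18 several and 10378 none. The brightest probe stood for a gene, and genes detected on at least 3 arrays were tested.

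One limma model held the 3 groups, with Benjamini-Hochberg adjustment over 11804 genes and calls at an adjusted p under 0.05. Spread was tested by limma on absolute deviations from group medians, age by a slope over the spontaneous tumors. All members were accounted for by role, called members were given with values, and so were the 6 with the largest SD in each tumor kind. Members and gene lists were chosen with earlier results of these data known. The number of arrays limits the precision. The chip that held each array is not named in the sources used here. The scripts were tested on simulated data. Alternatives changed background correction, normalization, filter, probe rule, eBayes settings, array weights, the replicate block and the samples, leaving out each in turn.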

Additional observations from a re-analysis of the deposited data

How the results depend on the processing

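Of the 19 calls of single members against normal B cells, 12 held under every alternative run. Over 511 values, 467 kept their call, 44 lost it and 0 reversed. The shares of all genes called that follow for group comparisons count both directions, while members are counted by direction. After transfer, array weights gave 7 higher and 10 lower members in place of 4 and 5, beside 61.1% of all genes called, and 9 were lower without adoptive-transfer tumors 1 and 5 (46.0%). Without the tumors of 107 days, an alternative chosen after seeing the data, 11 were lower (43.0%). In spontaneous tumors, 3 members were higher in place of 5 without background correction (34.8% of all genes called), with the deposited log2 values (35.1%) and without a filter (21%). With array weights 8 were higher (60.7%). In the same tumors, 8 were lower in place of 5 under median scaling (35.4% of all genes called) and without adoptive-transfer tumors 1 and 5 (44.5%), and 12 with array weights (60.7%), beside 36.4% as reported. Between tumor kinds, 1 member (Trim25) was higher in place of 0 with array weights, without adoptive-transfer tumors 1 and 5 and without the tumors of 107 days. The share of all genes called was then 7.57%, 5.99% and 5.7%, beside 2.73% as reported. Deviations from the mean called 1 member (Irf7) in spread, beside 1.29% of all genes in place of 0.339%. The test of age labels, added after seeing the data, called 8 members in place of 14 without background correction, with the deposited values and without a filter. The share of all genes called was then 2.99%, 2.98% and 1.53%, beside 3.05%. Leaving out 1 sample at a time gave 4 to 5 higher and 3 to 7 lower members after transfer, 3 to 5 and 4 to 6 in spontaneous tumors, 0 to 1 and 0 between kinds, 0 for spread and slope, and 5 to 18 for age labels. In the same runs the share of all genes called was 27.2% to 42.4% after transfer, 27.8% to 36.2% in spontaneous tumors and 1.44% to 4.79% between kinds. It was 0.271% to 0.466% for spread, 0% for slope and 0.568% to 5.4% for age labels. Median scaling moved the share of higher genes among all calls from 54.3% to 33.3% after transfer and from 50.8% to 32.2% in spontaneous tumors, and the median of all genes from 0.10 to -0.08 and from 0.08 to -0.07. Same-numbered samples showed little shared deviation (17 pairs, r from -0.08 to 0.22, 3 over 0.1), and the main model treated them as unpaired. A low correlation cannot exclude a shared source of such samples. The replicate block gave 3 higher and 8 lower members in spontaneous tumors (33.4% of all genes called) and 2 higher between kinds (1.46%). The cause of these shifts was not tested.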
